A study of Mus musculus with 46 samples.

Results

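The 9 genes described here, Tff3, Fam81a, Aph1b, Limd2, Ccl9, Cldn14, Enpp2, Gm2a and Serpinb8, were chosen by their normalised read counts, which were higher in the livers of Plvap knockouts on chow after fasting and also in the livers of Cav1 knockouts. They are 9 of 55416 genes counted. In both of those comparisons 14 genes of 12411 tested in both were called higher, and the 9 are among them; the others include Ahsg, Alb, Cfi and Gm8893. Those 14 make up 9.66% of the higher calls of the Plvap comparison and 4.2% of those of the Cav1 comparison. A gene was called where its Benjamini-Hochberg adjusted p from edgeR's quasi-likelihood test was under 0.05. The 3 members nearest to that limit had a larger adjusted p of 0.0411 (Cldn14), 0.04 (Aph1b) and 0.0362 (Fam81a), and the 3 genes nearest outside it had 0.0611 (C4a), 0.0617 (Iigp1) and 0.0668 (Fam198a).

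All 46 libraries came from livers of male mice, which were snap frozen. The Plvap line carries Plvaptm1.1Salm and Tg(Lrat-cre)1Rshw on C57BL/6JBomTac, so that Cre is driven by the Lrat promoter, active in hepatic stellate cells; controls were littermates, and the sources used here do not give which of the alleles they carry. Plvap knockouts and controls were studied on chow after a 12 h fast (5 knockouts, 6 controls), on chow after 10 h of fasting and 2 h of refeeding (4 and 4), on a western diet given for 6 weeks with fructose in the drinking water (4 and 5) and on a high-fat diet given for 6 weeks with normal water (5 and 5), both diets followed by a 12 h fast. The Cav1 knockouts were whole-body knockouts of STOCK Cav1tm1Mls/J (4) set against C57BL/6N wild types (4), all on chow after a 6 h fast, so that genotype and mouse stock differ together. Ages are not given in the sources used here. Libraries held 6656342 to 23311539 counts. Levels are CPM (counts per 1000000 of the library total, scaled by TMM over all 46 libraries), and differences are log2 fold changes ± SE.

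The genes do unrelated jobs. Tff3 encodes a small secreted trefoil peptide of mucus-lined epithelia. Ccl9 is a CC chemokine of the mouse, and Enpp2 encodes autotaxin, the secreted enzyme that makes lysophosphatidic acid from lysophospholipids. Aph1b is a subunit of gamma-secretase, the membrane protease that cuts Notch and the amyloid precursor protein, and Cldn14 is a claudin of tight junctions. Gm2a is the lysosomal cofactor for the breakdown of the ganglioside GM2. Limd2 is a LIM domain protein, whose human form binds integrin-linked kinase. Serpinb8 is an intracellular serpin, in human a furin inhibitor, and Fam81a encodes a coiled-coil protein. Plvap builds the diaphragms of caveolae and fenestrae, and Cav1 is the coat protein of caveolae.

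The genes lie on 6 chromosomes (GRCm39), none of them that of Plvap (chromosome 8), Cav1 (6) or the native Lrat gene (3). The site of the Lrat-cre transgene was not examined, so closeness of the genes to it is not known here. Tff3 is at chr17:31344280-31348620, Ccl9 at chr11:83463745-83469462 and Enpp2 at chr15:54702297-54816288. Aph1b is at chr9:66682484-66702772, Cldn14 at chr16:93715919-93809696, Gm2a at chr11:54988941-55003855 and Limd2 at chr11:106047082-106051686. Serpinb8 is at chr1:107517736-107538214 and Fam81a at chr9:69995793-70049842, 3293.02 kb from Aph1b. Gm2a and Serpinb8 are on the plus strand and the other 7 genes on the minus strand. In the annotated transcripts of an earlier build (GENCODE vM21), 18.4% of the 50-base stretches of Aph1b also occur in its neighbour Aph1c, and 5.1% of those of Enpp2 occur in the overlapping Gm26684, so reads may be split within these pairs; the share was at most 1.97% for the other 7 genes. The counting strand is not given in the sources used here.

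RefSeq promoters (GRCm38.p6) were found for 7 of the 9 genes. Those of Fam81a, Aph1b and Ccl9 are printed because these genes rose in the average described below, each had a single promoter in the table, and the bases after its start were found in an annotated transcript of the gene. The 250 bases before the start are shown 5′ to 3′ on the strand of the gene, with capitals marking matches of the motifs that were searched.
Fam81a (chr9:70141558-70141807, minus strand): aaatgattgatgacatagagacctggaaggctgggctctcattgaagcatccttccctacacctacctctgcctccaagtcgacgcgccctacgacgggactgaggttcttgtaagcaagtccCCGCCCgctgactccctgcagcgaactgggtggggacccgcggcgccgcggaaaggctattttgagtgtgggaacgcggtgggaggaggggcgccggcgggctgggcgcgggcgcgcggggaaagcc
Aph1b (chr9:66795424-66795673, minus strand): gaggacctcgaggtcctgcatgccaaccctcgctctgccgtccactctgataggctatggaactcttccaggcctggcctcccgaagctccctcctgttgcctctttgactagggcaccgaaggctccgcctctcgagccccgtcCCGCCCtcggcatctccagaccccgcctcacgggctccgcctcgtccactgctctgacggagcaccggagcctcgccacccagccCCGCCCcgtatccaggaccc
Ccl9 (chr11:83578637-83578886, minus strand): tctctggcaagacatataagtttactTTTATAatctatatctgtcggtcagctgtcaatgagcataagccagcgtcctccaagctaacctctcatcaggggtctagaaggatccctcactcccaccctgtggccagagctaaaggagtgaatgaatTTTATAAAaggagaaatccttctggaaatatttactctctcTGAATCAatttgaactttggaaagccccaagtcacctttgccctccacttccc
The motifs were the TATA box TATAAA, the CCAAT box CCAAT, the GC box GGGCGG, the E-box CACGTG, the FOX site GTAAACA, the nuclear receptor half-site AGGTCA, the STAT site TTCNNNGAA, the AP-1 site TGANTCA and the pair of half-sites known as DR1, on both strands. The capitals in Fam81a and Aph1b are GC box letters, 1 match in Fam81a and 2 in Aph1b, and those in Ccl9 are 3 TATA box matches, of which a pair overlap, and 1 AP-1 match. Among 32851 promoters of the same length, 32.7% held a GC box, 12.4% a TATA box and 6.75% an AP-1 site. A match describes the letters only.

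The labels were checked on the targeted genes. Plvap had 4.04 to 11.5 CPM in the 18 Plvap knockout livers and 18.6 to 41.7 CPM in their 20 controls, and Cav1 had 0.431 to 1.49 CPM in Cav1 knockouts and 3.82 to 6.12 CPM in wild types. Plvap did not differ beyond its error in Cav1 knockouts (log2 fold change -0.04 ± 0.13, edgeR adjusted p = 0.894). In a bulk liver, more cells of a type and more RNA per cell cannot be told apart.

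In the comparisons that chose them, all 9 genes were higher, with no test drawn from it. Their median log2 fold change was 0.99 in chow fasted Plvap knockouts and 0.98 in Cav1 knockouts, against -0.01 and 0.02 over all genes tested. Calls as higher made up 1.13% of genes tested in the Plvap comparison and 2.57% in the Cav1 comparison. Every knockout was above every control for 4 of the 9 genes in chow fasted Plvap livers (Tff3, Ccl9, Gm2a and Serpinb8), where 1.27% of genes were, and for all 9 in Cav1 livers, where 4.79% were. The Gm2a knockout and control values met at 71 CPM in the rounding used here.

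The livers that the choice did not use are the refed, western and high-fat Plvap livers. There the question was whether Plvap knockouts were higher again. In the average of these 3 knockout effects, 7 of the 9 genes rose: Tff3, Fam81a, Aph1b, Limd2, Ccl9, Enpp2 and Gm2a. The background was 0.788% of genes called higher (111 of 14090). Cldn14 (0.26 ± 0.15, adjusted p = 0.53) and Serpinb8 (0.68 ± 0.24, adjusted p = 0.187) were not called. All 9 log2 fold changes were above 0, with a median of 0.68, against 0 over all genes. The average used 27 libraries, each knockout set against the controls of its own condition.

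**Figure D1:**
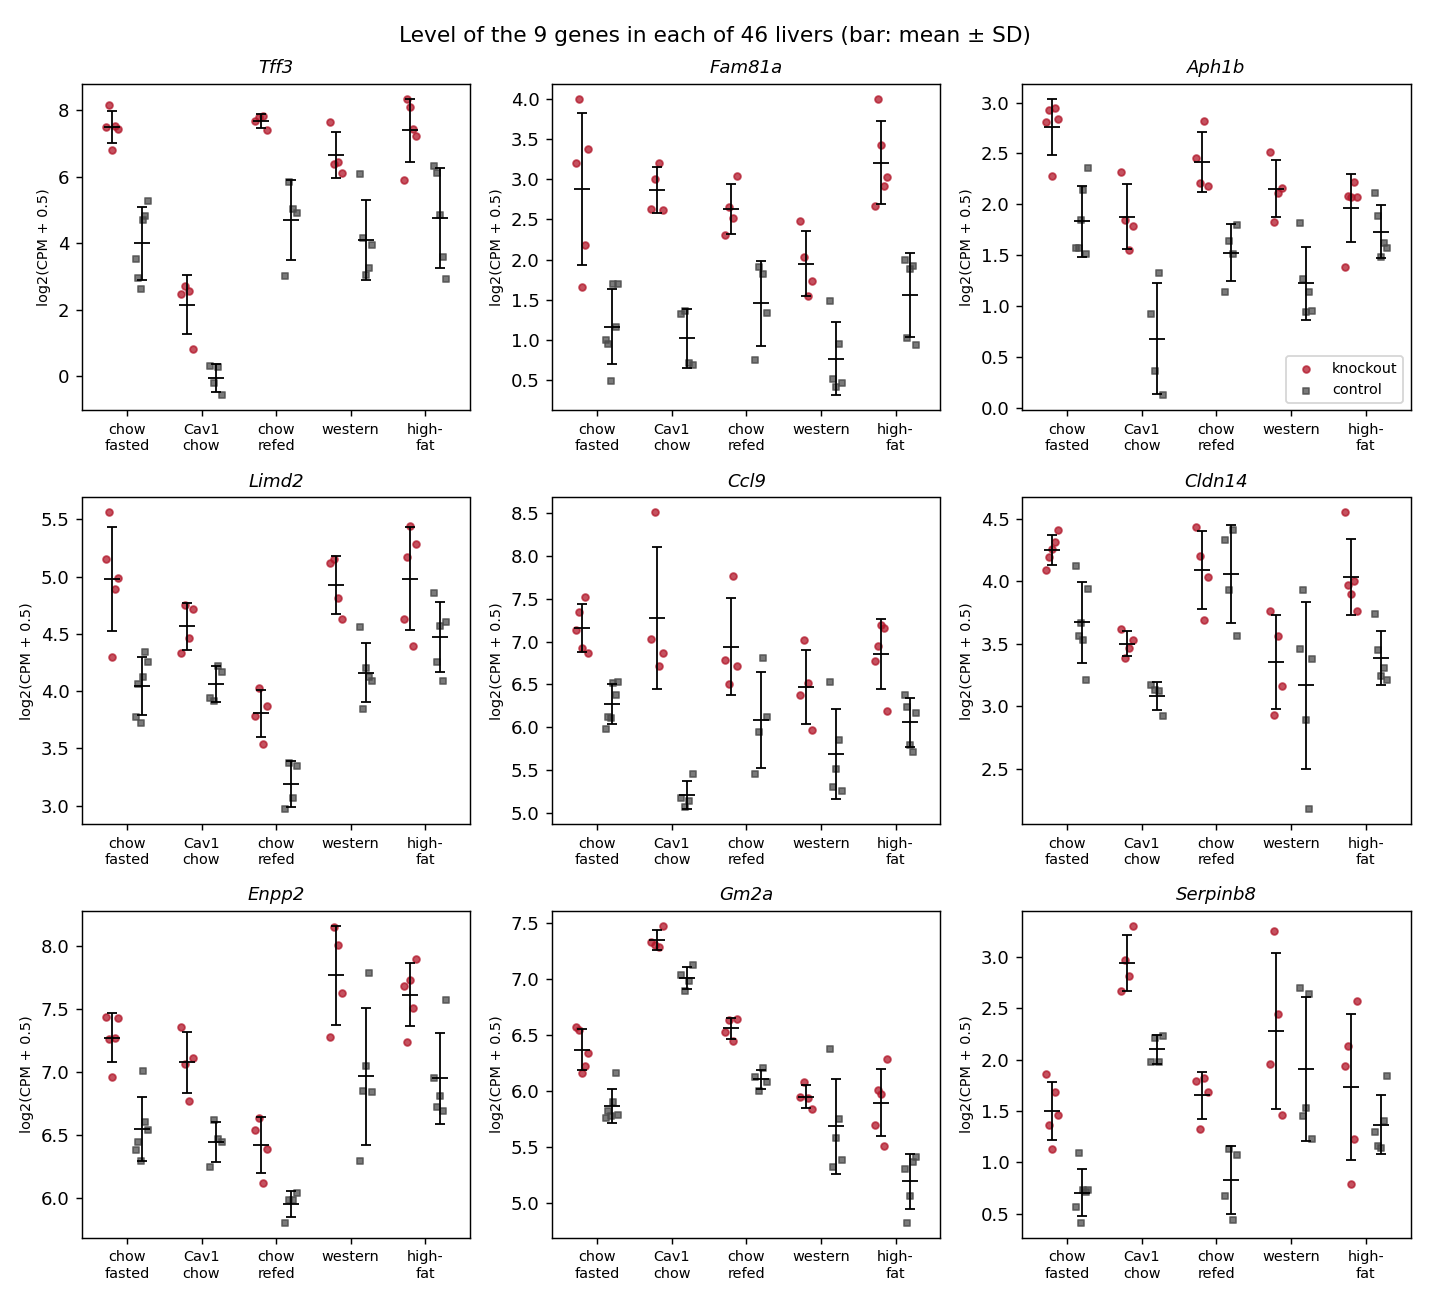
Level of each gene as log2(CPM + 0.5) in every liver, with knockouts (red circles) left of controls (grey squares) in each condition; the Cav1 pair is Cav1 knockout and wild type, the other 4 pairs are of the Plvap line. Bars are the mean and SD over 4 to 6 livers. Tff3 stands near the bottom of its axis in the Cav1 pair and the knockout points sit above most control points.

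Taken singly, the experiments called few of them. After refeeding edgeR called 0 of 9, where 0% of all 13228 genes were called higher, but 8 of 9 had an unadjusted p under 0.05, as had 4.61% of all genes with a higher level. DESeq2 called 4 of the 9 higher, and 30 of 33728 genes with counts. The replicate letters paired the refed livers, and with the letter as a block Ccl9 was called (0.85 ± 0.13, adjusted p = 0.0359) and 14 genes in all were called higher, against 0 without the block. On western diet edgeR called 0 of 9, where 0.00739% of genes were called higher. There 6 had an unadjusted p under 0.05, against 3.81% of genes. With limma-voom 1 of the 9 was called higher, and 5 of 13533 genes in all. On high-fat diet edgeR called Fam81a alone of the 9, where 0.2% of genes were called higher, and 7 had an unadjusted p under 0.05, against 7.05% of genes. DESeq2 called 4 there, with Tff3 (adjusted p = 0.0461), Ccl9 (0.0496) and Gm2a (0.0148) besides Fam81a, and limma-voom called 2, with Gm2a (0.0344) besides Fam81a. Over all genes on high-fat diet, DESeq2 called 165 of 30986 higher and limma-voom 86 of 13533. Every knockout was above every control for 7 of 9 genes after refeeding (background 2.71%), 4 of 9 on western diet (1.71%) and 3 of 9 on high-fat diet (1.9%).

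**Figure D2:**
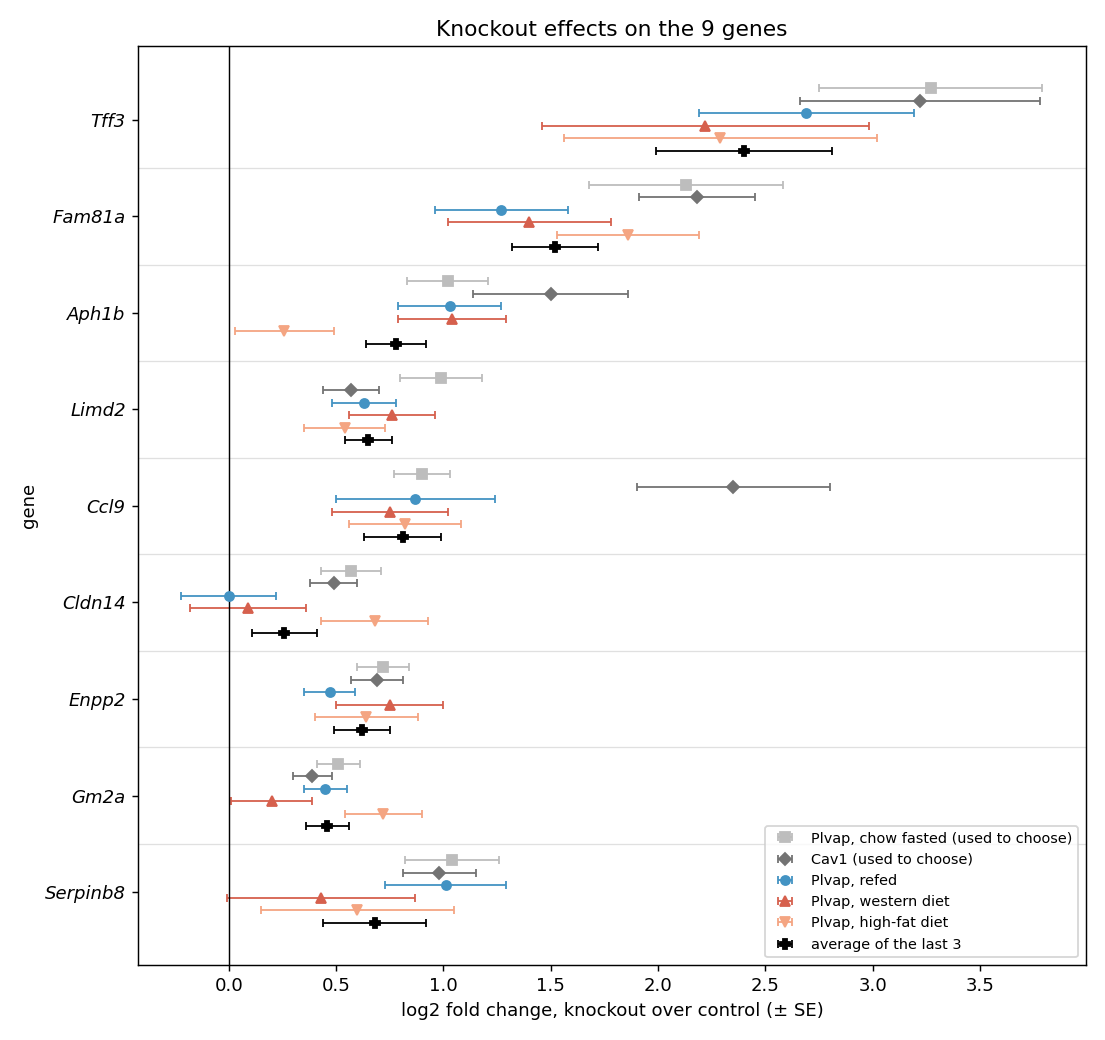
Log2 fold change, knockout over control, with its SE, for the 9 genes in each experiment; grey symbols are the pair of comparisons used to choose the genes, coloured symbols the refed, western and high-fat Plvap comparisons, and black crosses their average. Tff3 has the largest average (2.40 ± 0.41) and Cldn14 the smallest (0.26 ± 0.15).

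Among the secreted proteins, Tff3 (ENSMUSG00000024029) differed most. After refeeding it had 202, 220, 225 and 168 CPM in knockouts and 7.62, 57, 32.3 and 29.4 CPM in controls. On western diet it had 200, 83, 86.8 and 68.7 CPM in knockouts and 66.8, 17.2, 7.72, 9.13 and 15.1 CPM in controls. On high-fat diet it had 59.7, 319, 272, 172 and 148 CPM in knockouts and 80.1, 69.1, 28.2, 11.6 and 7.07 CPM in controls. Knockouts and controls did not overlap after refeeding or on western diet, while on high-fat diet 1 knockout lay below 2 of the controls. The average rise was 2.40 ± 0.41 (5.28-fold, adjusted p = 0.00506). In the chow fasted livers that chose it, Tff3 had 179, 285, 111, 184 and 173 CPM in knockouts, against a lowest of 5.75, a median of 18.3 and a highest of 38.4 CPM in controls. In Cav1 knockouts it had 5.05, 6.07, 5.5 and 1.27 CPM, against 0.729, 0.364, 0.724 and 0.175 CPM in wild types, where the counts were 3 to 12 reads a library. The log2 fold change there was 3.22 ± 0.56 and that of the chow fasted Plvap livers 3.27 ± 0.52, while the levels of the 2 lines, counted in separate tables, differed: Tff3 averaged 19.4 CPM in chow fasted Plvap controls.

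Ccl9 had 109, 90.2, 218 and 104 CPM in refed knockouts and 43.3, 61.1, 112 and 69.2 CPM in refed controls. On western diet it had 82.6, 129, 91.5 and 62.1 CPM in knockouts and 92.1, 38.9, 45, 57 and 37.5 CPM in controls, and on high-fat diet 109, 123, 146, 142 and 72.4 CPM in knockouts and 82.3, 74.7, 54.8, 51.7 and 71.6 CPM in controls. The groups overlapped in all 3 experiments. Ccl9 rose by 0.81 ± 0.18 in the average (adjusted p = 0.0236). It lost its call without replicate A of the refed controls (adjusted p = 0.0533) or without replicate B of the western knockouts (0.053). Cav1 knockouts held 130, 363, 104 and 116 CPM of Ccl9, and wild types 35.5, 33, 34.7 and 43.1 CPM. Its neighbour Ccl6, another CC chemokine 9.25 kb away, was not called in the average (0.22 ± 0.21, adjusted p = 0.753).

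Enpp2 had 92.4, 98.7, 69.2 and 83.5 CPM in refed knockouts and 55.3, 62.5, 62.6 and 65.4 CPM in refed controls, with no overlap. On western diet the knockouts had 155, 284, 257 and 197 CPM and the controls 77.5, 115, 132, 221 and 114 CPM. On high-fat diet the knockouts had 204, 151, 211, 182 and 238 CPM and the controls 123, 105, 112, 103 and 190 CPM. On both diets 1 high control overlapped the knockouts. On average Enpp2 rose by 0.62 ± 0.13 (1.54-fold, adjusted p = 0.0129). The overlapping antisense Gm26684 held 4543 counts over all libraries, against 89275 for Enpp2. A list of genes for lysophosphatidic acid also held relatives of them and enzymes of other lysophospholipids. Of its 13 tested genes, edgeR called 2 higher in the average. They were Pla1a, a phospholipase that releases lysophosphatidylserine (0.36 ± 0.07, adjusted p = 0.00816), and Enpp1, a relative of autotaxin (0.27 ± 0.07, adjusted p = 0.0427). Neither call is a measure of lysophosphatidic acid. The list's median was 0.15, against 0 over all genes. Lpcat3, which remakes phospholipids from lysophospholipids, was the 1 of the 13 called on high-fat diet (0.43 ± 0.07, edgeR adjusted p = 0.0125). It was not called in the average (0.14 ± 0.05, edgeR adjusted p = 0.274).

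Of the membrane proteins, Aph1b had 4.95, 4.12, 6.54 and 4.04 CPM in refed knockouts and 1.71, 2.61, 2.35 and 2.99 CPM in refed controls. On western diet it had 5.19, 3.06, 3.81 and 3.97 CPM in knockouts and 3.02, 1.92, 1.42, 1.7 and 1.43 CPM in controls. In these experiments no knockout overlapped a control. On high-fat diet the knockouts had 2.1, 3.73, 3.69, 4.17 and 3.71 CPM and the controls 3.81, 3.17, 2.3, 2.57 and 2.47 CPM, with overlap. The log2 fold change was 1.04 ± 0.25 on western and 0.26 ± 0.23 on high-fat diet. Their difference of 0.78 ± 0.34 was not called by edgeR (adjusted p = 0.397). Averaged, Aph1b rose by 0.78 ± 0.14 (adjusted p = 0.00389). Aph1c, 19.5 kb away, stood at 0.73 ± 0.25 (adjusted p = 0.171). None of the 12 tested genes of gamma-secretase and its substrates was called in the average, and their median was 0.04; Aplp2 (154 to 392 CPM as group means) and Psen2 (164 to 258 CPM) were the most abundant.

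Cldn14, the claudin, was not called in the average or in any of the 3 experiments. Refed knockouts had 21, 17.9, 12.4 and 15.8 CPM and refed controls 19.6, 14.7, 20.8 and 11.3 CPM. On western diet knockouts had 13.1, 7.11, 11.3 and 8.42 CPM and controls 10.5, 14.7, 6.89, 4.03 and 9.9 CPM. On high-fat diet the groups did not overlap, at 23, 15.1, 14.5, 15.5 and 13.1 CPM in knockouts and 12.8, 10.4, 8.97, 9.42 and 8.74 CPM in controls, and the log2 fold change was 0.68 ± 0.25 (adjusted p = 0.215). Of 16 other tight junction genes tested in the average, none was called, and Cldn3 (92.3 to 147 CPM as group means) and Lsr (71.3 to 128 CPM) were the most abundant.

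Gm2a, the lysosomal cofactor, had 91.3, 98.5, 86.3 and 99.4 CPM in refed knockouts and 69, 63.5, 72.9 and 67.2 CPM in refed controls. On western diet knockouts had 60.9, 67.2, 60.5 and 56.7 CPM and controls 82.4, 39.6, 47.2, 53.4 and 41.2 CPM. On high-fat diet knockouts had 51.1, 64.1, 62.1, 45 and 77.2 CPM and controls 39, 27.8, 32.8, 40.7 and 42 CPM. The groups stood apart after refeeding and on high-fat diet, and on western diet 1 control lay above every knockout. In the average Gm2a rose by 0.46 ± 0.10 (1.38-fold, adjusted p = 0.0125). The 22 genes tested for lysosomal glycolipid breakdown had a median log2 fold change of 0.10 in the average, against 0 over all genes.

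Among the intracellular proteins, Limd2 had 13.2, 15.8, 11.1 and 14.1 CPM in refed knockouts and 7.32, 9.81, 7.9 and 9.67 CPM in refed controls. On western diet knockouts had 34.2, 35.1, 27.6 and 24.3 CPM and controls 23.1, 13.8, 17.9, 16.9 and 16.5 CPM. On high-fat diet the groups overlapped, with 24.3, 35.6, 43, 20.5 and 38.2 CPM in knockouts and 28.6, 18.6, 23.2, 16.6 and 23.7 CPM in controls. The average rise was 0.65 ± 0.11 (adjusted p = 0.00173). None of 10 LIM adaptor and integrin-linked kinase genes was called in the average (median 0), and Parva and Lims2 were the most abundant, at 61.3 to 98.7 and 53.7 to 78.8 CPM as group means.

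Fam81a had 4.44, 5.8, 5.23 and 7.71 CPM in refed knockouts and 1.18, 3.27, 3.03 and 2.03 CPM in refed controls. On western diet it had 5.09, 3.59, 2.43 and 2.81 CPM in knockouts and 2.28, 0.92, 0.824, 1.43 and 0.887 CPM in controls. On high-fat diet it had 5.82, 15.5, 10.2, 7.08 and 7.65 CPM in knockouts and 3.49, 1.54, 3.19, 3.28 and 1.41 CPM in controls. No knockout overlapped a control in any of the 3. The average rise was 1.52 ± 0.20 (2.86-fold, adjusted p = 0.000161), and the high-fat rise alone was 1.86 ± 0.33 (adjusted p = 0.0159). The high-fat call was lost without replicate B of the high-fat controls (adjusted p = 0.0862) or without replicate B of the high-fat knockouts (0.0624).

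Serpinb8 overlapped between the groups on both diets. Western knockouts had 3.39, 9.03, 4.93 and 2.26 CPM and western controls 5.98, 2.22, 2.4, 5.73 and 1.84 CPM, and high-fat knockouts had 3.34, 3.88, 1.23, 1.84 and 5.42 CPM and high-fat controls 1.95, 1.73, 1.7, 2.14 and 3.09 CPM. After refeeding the groups stood apart, at 2.96, 2, 3.03 and 2.69 CPM in knockouts and 1.1, 1.69, 0.858 and 1.6 CPM in controls. Of 5 tested clade B serpins and furin none was called in the average, and Furin (136 to 392 CPM as group means) and Serpinb6a (14.5 to 25.9 CPM) were the most abundant. Among the chemokine genes 17 were tested and none was called in the average, with a median of 0.05; Cxcl12 (299 to 491 CPM as group means) had 0.29 ± 0.08 (adjusted p = 0.0659). Among the trefoil and mucus genes 3 of 14 were tested and none was called; Cxcr4 reached 1.68 and Muc1 1.51 CPM as group means.

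The diets were also set against each other, western minus high-fat. In knockouts edgeR called 1 of the 9 genes lower, Fam81a (-1.43 ± 0.34, adjusted p = 0.018), where 4.01% of genes were called lower and 4.43% higher. DESeq2 called 1 of the 9 lower as well, and limma-voom called 2, with Cldn14 (-0.75 ± 0.23, adjusted p = 0.0356) besides Fam81a. Over all genes in knockouts, DESeq2 called 713 of 30986 lower and limma-voom 813 of 13533. The edgeR call of Fam81a was lost without replicate C (adjusted p = 0.0615) or D (0.0589) of the western knockouts. In controls 0 of the 9 were called by edgeR, where 1.1% of genes were called higher, and DESeq2 and limma-voom called 0 as well. Gm2a (0.54 ± 0.18, unadjusted p = 0.00705) was the 1 of 9 higher at an unadjusted p under 0.05, as were 7.95% of all genes. Fam81a (-0.97 ± 0.37, unadjusted p = 0.0165) and Aph1b (-0.59 ± 0.24, unadjusted p = 0.0256) were lower at that limit. Neither was called (edgeR adjusted p = 0.198 and 0.245), where 134 of 13533 genes were called lower. The share of all genes lower at the unadjusted limit is not given here, so these genes are not set against a background. The knockout effect differed between the diets for 0 of 9 genes by edgeR (0% of genes called higher), DESeq2 and limma-voom, with 1 of 9 higher at an unadjusted p under 0.05, against 5.48% of all genes.

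Per kilobase of exon, Tff3 was the most abundant in the Plvap line, at 394 CPM per kilobase in high-fat knockouts and 79.5 in high-fat controls. Ccl9 stood at 38.9 CPM per kilobase in those knockouts and 22 in those controls, and Serpinb8 at 0.655 in the knockouts and 0.443 in the controls. Ordered by group mean, the 4 highest of 10 groups for Tff3 were the Plvap knockout groups and the lowest was the wild type of the Cav1 experiment; levels from separate tables may also differ by table. The livers of neighbouring groups in that order overlapped in 8 of 9 steps for Tff3, in 9 of 9 for Fam81a, Aph1b, Ccl9 and Cldn14, in 8 of 9 for Limd2, Enpp2 and Serpinb8 and in 7 of 9 for Gm2a. Limd2 and Enpp2 had their lowest group means in refed controls, at 8.67 and 61.4 CPM, and next in refed knockouts, at 13.6 and 85.9 CPM. Gm2a had its highest in Cav1 knockouts, at 162 CPM, and next in the wild types of that experiment, at 128 CPM.

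Within groups, some pairs of the genes varied together and others did not. Over 46 livers, with each value taken as its deviation from the group mean, the 36 gene pairs had a median Pearson r of 0.17. Of these r values, 25 were above 0 and 11 were above 0.3. The highest was 0.64 for Limd2 and Gm2a, then 0.63 for Tff3 and Aph1b, and the lowest was -0.42 for Cldn14 and Enpp2. No median r for pairs of other genes is given here. Whether these genes vary together more than other genes do was not tested. Library and depth effects may remain in the deviations, while mean differences between tables are removed with the group means. Among 11354 genes, those most like each gene by this measure were Ptgs1 (0.74) for Tff3, Rps18 and Rpl38 (0.81 each) for Ccl9, Ccny (0.75) and Lactb (0.74) for Enpp2, and Cpm (0.70) and Tmco6 (0.66) for Aph1b. For the others they were Skil (0.67) and Slc16a6 (0.66) for Cldn14, Tpm3 (0.76) and Asgr2 (0.74) for Gm2a, Tmem86b (0.78) and Aldh1l1 (0.75) for Limd2, Kng1 and Trf (0.75 each) for Fam81a, and Rab4a (0.77) and Adora1 (0.72) for Serpinb8.

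**Figure D3:**
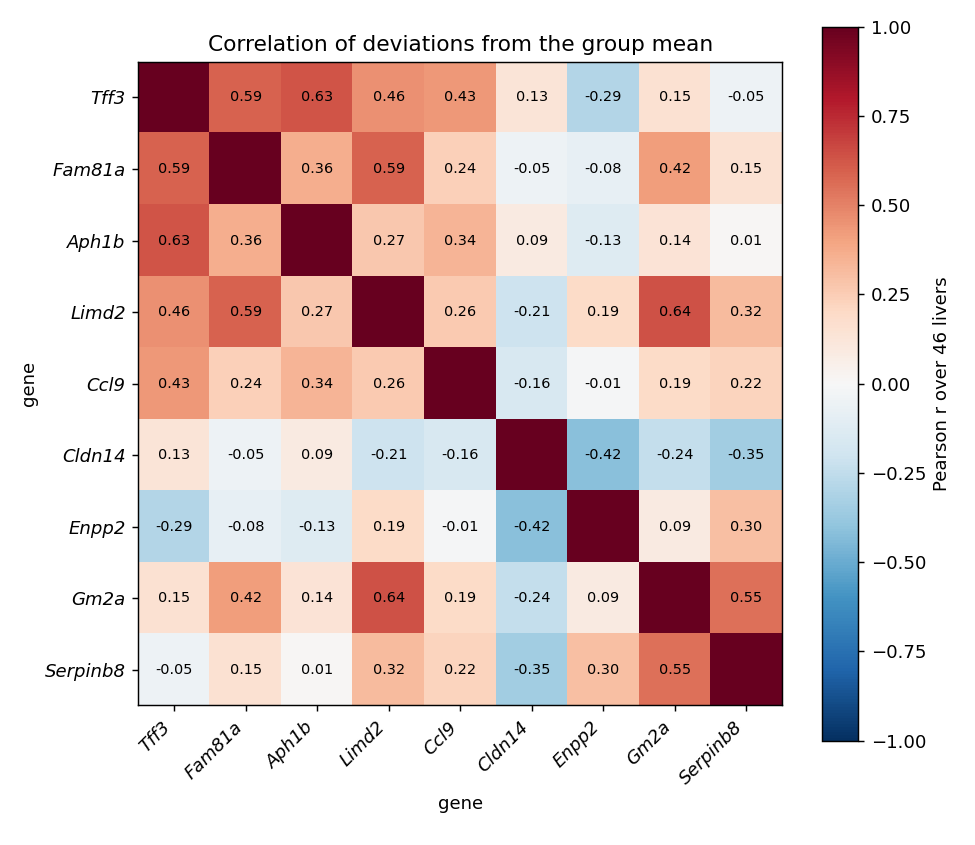
Pearson r between the 9 genes over 46 livers, each value a deviation from its group mean (red positive, blue negative). Limd2 and Gm2a have the highest r, 0.64, and Cldn14 and Enpp2 the lowest, -0.42.

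Cell type markers were summed in the same livers. The summed CPM of 8 hepatocyte markers was 85900 to 104000 in chow fasted knockouts and 53100 to 65500 in controls. After refeeding it was 94900 to 98600 in knockouts and 59500 to 71000 in controls. On western diet it was 64500 to 88400 in knockouts and 48200 to 64400 in controls, and on high-fat diet 76100 to 108000 in knockouts and 45700 to 55000 in controls. In Cav1 knockouts it was 78700 to 116000, and in wild types 64200 to 76200. In each pair every knockout was above every control. Without Alb the sum overlapped in chow fasted livers (27600 to 32800 CPM in knockouts, 24100 to 31400 in controls), refed livers (24000 to 27400 and 22200 to 25400) and western livers (27600 to 30100 and 24300 to 30600). Without Alb it was 25900 to 34000 CPM in high-fat knockouts and 23200 to 25900 in high-fat controls, and 22200 to 28100 in Cav1 knockouts and 19300 to 21500 in wild types. Alb made up 45.6% to 75.6% of the whole sum and was the 1 marker of it called in the average (0.85 ± 0.09, adjusted p = 3.43e-06). Kupffer cell markers (10, none called in the average) summed to 748 to 1060 CPM in chow fasted knockouts and 536 to 834 in controls, and overlapped in every other pair too. Lymphocyte markers summed to 33 to 40 CPM in chow fasted knockouts and 22 to 31.2 in controls. Their sums overlapped after refeeding (17.9 to 22.6 CPM in knockouts, 14.9 to 18.4 in controls) and on western diet (37.2 to 44.7 and 22.7 to 64.1). They also overlapped on high-fat diet (26.8 to 44.3 and 23.8 to 42.1) and in Cav1 livers (16.6 to 34.2 and 12.4 to 20.8). Cd79a alone of 10 lymphocyte markers was called by edgeR in the average (0.96 ± 0.23, adjusted p = 0.0298). Cholangiocyte markers summed to 47.5 to 85.3 CPM in chow fasted knockouts and 60 to 119 in controls. Knockout and control sums of these markers overlapped in every pair. Their median was lower in chow fasted knockouts (56.3 CPM, controls 86.1), refed knockouts (47.3, controls 58) and high-fat knockouts (61.5, controls 74.7). It was higher in western knockouts (66.1 CPM, controls 64.7) and in Cav1 knockouts (62, wild types 53.3). Lyve1 alone of 10 endothelial markers was called (0.61 ± 0.13, adjusted p = 0.0148), and none of the stellate (10), monocyte and neutrophil (10) or tested cholangiocyte (6) markers. The 8 pancreas markers summed to at most 4.66 CPM in any liver, with Cel at 0 in every library, and the median of that sum was higher in knockouts in all 5 pairs. It was 1.99 CPM in chow fasted knockouts and 0.994 in controls, 0.552 in refed knockouts and 0.198 in controls, and 1.09 in western knockouts and 0.341 in controls. It was 2.12 CPM in high-fat knockouts and 0.934 in controls, and 1.03 in Cav1 knockouts and 0.413 in wild types. Cela2a was the 1 pancreas marker with enough counts to be tested in chow fasted livers, where it was called higher (log2 fold change 1.04, adjusted p = 0.0391), and in the average, where it was not called (1.18). Intestine markers, of which Fabp2 made up 78.6% to 97%, summed to 75.5 to 181 CPM in chow fasted knockouts and 216 to 280 in controls, and to 136 to 226 in high-fat knockouts and 241 to 374 in controls. The sums overlapped after refeeding (52.5 to 217 CPM in knockouts, 147 to 186 in controls), on western diet (339 to 530 and 420 to 915) and in the Cav1 experiment (47.2 to 220 in knockouts, 58.8 to 92 in wild types). The part of these differences in the 9 genes was not tested.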

How the data were processed

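Raw counts per Ensembl gene were deposited in 4 tables, without normalization, together with the exonic bases of every gene, a column in another unit, per the file headers. Per the submitters' processing notes, the tools were STAR 2.7.8a, featureCounts 2.0, FastQC 0.11.9 and MultiQC 1.10.1, and the build was GRCm39. The strand setting and the annotation release are not given in the sources used here. Columns were matched to labels by sample code, and groups come from the labels. The protocol's free text gives a 12 h fast for all chow livers, while the sample characteristics give the times used here. Symbols, joined by Ensembl identifier, cover 52083 of 55416 genes, and genes without one hold 0.764% of counts. Libraries of a group were compared in 85 pairs, and 0 pairs were identical.

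Tests used edgeR 4.0.16 in R 4.3.3 (quasi-likelihood, TMM, robust, filterByExpr with minimum count 10 and total 15), with Benjamini-Hochberg adjustment over all genes tested. Refed, chow fasted and Cav1 effects were fitted on their own table, diet effects on the 4 diet groups, and the average on the 6 refed and diet groups joined by gene. All 9 genes passed the filter in every comparison. In the Cav1 experiment the wild types held 3 to 12 reads of Tff3 and 10 to 33 of Aph1b. There both genes passed only with the help of the knockouts, where they are higher. SEs are the log2 fold change over the square root of F. The p-values set the difference between groups against the spread between libraries, and PCR reads are not independent molecules. Alternatives were DESeq2 1.42.0, its size factors, limma-voom 3.58.1 with quality weights, no filter, a filter at 1 CPM, a block for the replicate letter, fits on the compared groups alone and each library left out. Same-lettered refed knockouts and controls deviated together (r = 0.312 to 0.355 over 4 pairs, each knockout best with its own letter). In the other experiments the lowest r was 0.009 or below. The labels do not state a pairing. The main fits, that of the average among them, used no block, and the letter entered only as an alternative. The scripts were tested on simulated data. The genes, and the lists of related genes and markers, were chosen with earlier results of these data known. Named besides the 9 genes are the targeted genes, up to 3 called genes a list (with none called, the 2 with the highest mean CPM), the 2 most alike genes for each, and the neighbours Aph1c and Ccl6; C4a, Iigp1, Fam198a and markers were named after their values were seen. Some genes that this rule names are not reported here.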

Additional observations from a re-analysis of the deposited data

Results flagged for a closer look

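Of 90 sets of livers (9 genes in 10 groups), 10 held a liver far from the others of its group by Dixon's test on CPM. Chance alone flags about 1 of 20 sets where values are normally distributed. CPM was not transformed for this test, so that rate may not hold here. For Tff3 these were replicate A of the western knockouts (200 CPM, the others 68.7 to 86.8) and replicate A of the western controls (66.8 CPM, the others 7.72 to 17.2). For Aph1b they were replicate C of the chow fasted knockouts (4.35 CPM, the others 6.51 to 7.21) and replicate A of the high-fat knockouts (2.1 CPM, the others 3.69 to 4.17). For Ccl9 they were replicate B of the Cav1 knockouts (363 CPM, the others 104 to 130) and replicate C of the refed knockouts (218 CPM, the others 90.2 to 109). For Cldn14 it was replicate A of the high-fat knockouts (23 CPM, the others 13.1 to 15.5). For Enpp2 they were replicate D of the chow fasted controls (128 CPM, the others 77.8 to 96.6) and replicate E of the high-fat controls (190 CPM, the others 103 to 123). For Gm2a it was replicate E of the chow fasted controls (71 CPM, the others 53.6 to 59.4).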

How the results depend on the processing

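The average over refed, western and high-fat livers called 7 of the 9 genes higher under 5 of 6 other settings. It called 8 without the low count filter (Serpinb8, edgeR adjusted p = 0.000972), where 313 of 36574 genes were called higher. With 1 of 27 libraries left out it called 6 to 7, and 84 to 247 of all genes in either direction. In the comparisons that chose the genes, leaving out 1 library gave 5 to 9 of 9 in chow fasted Plvap livers and 4 to 9 of 9 in Cav1 livers. Over all genes, in either direction, those fits called 90 to 550 and 330 to 671. The genes were chosen in these same livers, so their counts there are description only. Tff3 was called after refeeding without replicate A of the refed controls (2.36, adjusted p = 0.0234).

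Counts of all genes called moved as follows. Chow fasted Plvap: 289, against 713 with DESeq2, 490 with limma-voom, 861 without the filter, 713 with the replicate block and 90 to 550 with 1 library left out. Cav1: 607, against 939 with DESeq2, 1279 without the filter and 330 to 671 with 1 library left out. Refed: 3, against 59 with DESeq2, 10 with limma-voom, 131 without the filter, 30 with the replicate block and 0 to 4 with 1 library left out. Western: 2, against 21 with DESeq2, 15 with limma-voom, 10 without the filter, 1 with the replicate block, 1 with only the groups compared and 1 to 5 with 1 library left out. High-fat: 38, against 244 with DESeq2, 110 with limma-voom, 99 without the filter and 4 to 61 with 1 library left out. Average: 169, against 311 with DESeq2, 265 with limma-voom, 551 without the filter and 84 to 247 with 1 library left out. Western minus high-fat in controls: 283, against 591 with DESeq2, 490 with limma-voom and 132 to 307 with 1 library left out; in knockouts: 1143, against 523 with the replicate block and 367 to 1307. Difference of the Plvap effect between diets: 0, against 56 with DESeq2, 10 without the filter and 0 to 1 with 1 library left out. The cause was not tested.

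Signs turned for genes that were not called. In the difference of the Plvap effect, limma-voom gave 0.59 for Tff3, 0.08 for Ccl9 and 0.10 for Serpinb8, and leaving out 1 library gave -0.54 to 0.87 for Tff3, -0.29 to 0.23 for Ccl9, -0.06 to 0.39 for Enpp2 and -0.66 to 0.14 for Serpinb8. On western diet the ranges were -0.09 to 0.32 for Cldn14 and -0.06 to 0.71 for Serpinb8. Between diets they were -0.36 to 0.05 for Cldn14 and -0.21 to 0.25 for Enpp2 in controls, and -0.22 to 0.02 for Limd2 and -0.05 to 0.16 for Gm2a in knockouts. The replicate block changed no member's call other than Ccl9 after refeeding and, in Cav1 livers, Ccl9 (adjusted p = 0.0758) and Cldn14 (0.0704).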

Other observations

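Of the other genes called higher in both chow fasted Plvap and Cav1 knockouts, Alb, Ahsg, Cfi and Gm8893 were also called higher in the average over refed, western and high-fat Plvap livers, by edgeR. Alb, the main plasma protein, had a log2 fold change of 0.85 there (adjusted p = 3.43e-06), Ahsg, or fetuin-A, 0.39 (adjusted p = 0.00406), and Cfi, complement factor I, 0.45 (adjusted p = 0.000934). Gm8893 had 0.80 in the average (adjusted p = 0.027), 1.11 in chow fasted Plvap knockouts and 6.35 in Cav1 knockouts, where the mouse stocks differ as well.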
